A study of Mus musculus with 8 samples.

Results

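The genes described here are 8 mouse genes with which osteoclasts, the cells that dissolve bone, secrete acid, digest bone matrix and receive the signals that form them. They were chosen by symbol, with earlier results of these data known, among them the high level of Clcn7: Clcn7, Tcirg1, Atp6v0d2, Acp5, Ctsk, Oscar, Mmp9 and Tnfrsf11a. All 8 were listed, each under 1 identifier, among the 31300 mouse genes of a table of 52016 mouse and canine genes. The table holds RNA of serum exosomes, the small vesicles that cells shed into blood, from NCr nu/nu mice, an athymic strain that lacks most T cells and accepts grafts of other species. The mice received 10 µl into the tibia. The groups are OSCA-32 and OSCA-40 at week 8 (100000 cells of either canine osteosarcoma line), PBS at week 8 (buffer without cells) and week 0 (serum of all mice, taken before the injection). OSCA-32 and OSCA-40 are cell lines of osteosarcoma, a cancer of bone, from dogs. Each group has 2 libraries of pooled serum, and no label ties these to separate animals. The p-values below therefore reflect the scatter between libraries, which may be technical. The labels used here state neither age nor sex of the mice.

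An osteoclast seals off a patch of bone and pumps protons into it through the V-ATPase, a proton pump of many subunits, while chloride follows through a transporter so that charge stays balanced. The acid dissolves the mineral, and proteases secreted beside it then digest the exposed collagen. Osteoclasts form from monocyte precursors when the cytokine RANKL binds its receptor RANK, and osteosarcoma grows in bone, where that exchange takes place. None of these steps was measured directly here, since RNA in blood vesicles is a mixture from many tissues.

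Each deposited value is a whole number that behaves as TPM, a relative abundance corrected for transcript length, so that levels can be compared between genes within a library. The libraries summed to between 977106 and 989183 over both species, which says nothing of how deeply each was sequenced. Canine genes took 43.3% to 70.7% of the 4 tumour libraries, against 14.7% to 17.4% of the 4 tumour-free libraries (PBS and week 0). A mouse gene can therefore have a lower deposited value in a tumour library because canine genes take more of it. The tumour-free mice carried no canine cells, so values of canine genes need not be canine RNA. Whether canine reads were also assigned to mouse genes in tumour libraries was not tested. For tests each library was rescaled so that most genes stayed level between libraries, and such values are called scaled below. Of 5 vesicle components looked up after the values were known, Cd9 was high, with a mean of 208 in tumour-free libraries, and Cd63, Cd81, Tsg101 and Pdcd6ip lay at 6.75 to 13.5. The summed value of these 5, as deposited, was 37 to 136 in tumour libraries, against 233 to 278 in tumour-free libraries. Cd9 made up most of each sum, with 106 and 117 in OSCA-32, 29 and 26 in OSCA-40 and 208 and 192 in PBS. With library totals alone, the median tested mouse gene moved by -0.56 (log2) in OSCA-32 and -1.53 in OSCA-40 against PBS. The cause of the lower Cd9 was not tested.

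Clcn7 stood far above the other genes, which was known when the genes were chosen and is given as a description. Its 4 tumour-free libraries averaged 434, which placed it at rank 96 of 21474 mouse protein-coding genes. Tcirg1 followed at 121.25 (rank 336), Tnfrsf11a at 61.5 (rank 666) and Atp6v0d2 at 18.75 (rank 2467). Oscar at 6.0, Mmp9 at 5.5, Acp5 at 4.75 and Ctsk at 4.0 lay close to the median protein-coding gene, which had a value of 5 in every tumour-free library. The products that digest bone or are classic stains for the osteoclast (Ctsk, Acp5) were thus at the low end. The chloride transporter Clcn7, the pump subunit Tcirg1 and the receptor Tnfrsf11a were at the high end. Clcn7 and Tcirg1 serve lysosomes of other cells too, and the part of such cells in these levels was not tested.

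The next sequence is shown because it lies in a transcript of Clcn7, the member with the highest values, and recurs across the mouse transcriptome. The kallisto named in the submitters' processing notes assigns reads to transcripts by their sequence. Reads that fit several transcripts equally well have to be divided between them. A stretch was counted as recurrent where at least 50 bases in a row were each matched by transcripts of at least 50 other genes, in alignments of at least 50 bases with an identity of at least 80%. This search was chosen after the values were seen. Matches this loose need not share reads, and how many reads were divided between genes was not measured. In Clcn7 the stretch takes up bases 77 to 296 of Clcn7-202, a transcript of 1006 bases annotated as a retained intron, at chr17:25158731-25158950 on the plus strand of GRCm38. That place overlaps no coding exon or untranslated region of any annotated transcript of Clcn7. The sequence comes from the GENCODE mouse release 21 transcripts, and the capitals mark a word of 15 bases. All such words of mixed composition in the stretch were searched on both strands of all transcripts. The word marked is the one found in the most genes.
Clcn7-202: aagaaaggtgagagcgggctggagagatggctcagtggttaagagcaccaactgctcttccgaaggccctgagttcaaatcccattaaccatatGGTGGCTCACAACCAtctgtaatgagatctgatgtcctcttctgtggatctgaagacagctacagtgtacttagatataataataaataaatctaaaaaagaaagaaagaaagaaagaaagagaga
The word GGTGGCTCACAACCA occurred in transcripts of 1376 of 55450 genes (2.48%), and single bases of the stretch were matched by up to 2111 other genes. The stretch resembles a short interspersed element of the B2 family, mobile elements that are spread through mouse introns; no repeat annotation was used.

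Clcn7 (ENSMUSG00000036636, chr17:25133391-25162104, plus strand) encodes the chloride-proton exchanger of lysosomes and of the osteoclast's ruffled border, and its loss causes osteopetrosis, abnormally dense bone. Its deposited values were 388 and 422 in OSCA-32 libraries, 221 and 256 in OSCA-40 libraries, 435 and 438 in PBS libraries and 410 and 453 at week 0. It averaged 405 ± 24.04 in OSCA-32, 238.5 ± 24.7 in OSCA-40, 436.5 ± 2.12 in PBS and 431.5 ± 30.4 at week 0 (SD, n = 2 each). As deposited, both OSCA-40 libraries lay below all others, and OSCA-32 overlapped week 0. Set against the mouse genes alone the order turned round. Per 100000 of the mouse total, Clcn7 took 71.3 and 75.7 in OSCA-32, 70.8 and 88.4 in OSCA-40, 52.2 and 52.9 in PBS and 49.9 and 56.1 at week 0. All 4 tumour libraries then lay above all 4 tumour-free libraries, and the lines overlapped each other.

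**Figure D1:**
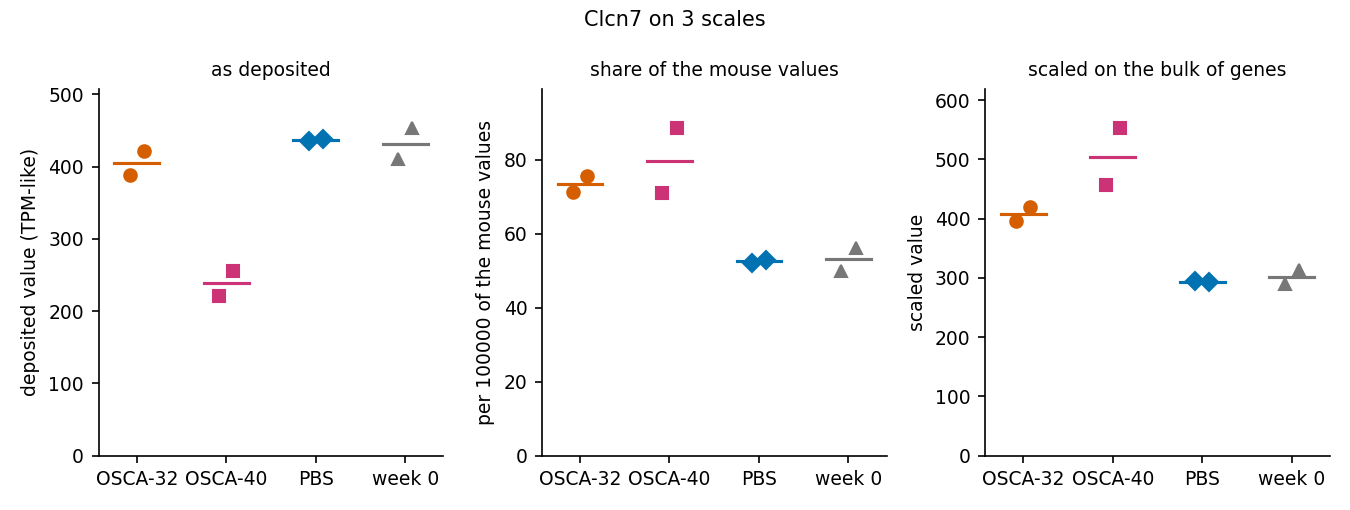
Clcn7 in each library on 3 scales: the deposited value, the value per 100000 of the mouse total and the scaled value used in the test. Points are libraries and short lines are the mean of the 2 libraries of a group. The OSCA-40 libraries are the lowest on the deposited scale (221 and 256) and, scaled, the highest (456 and 552).

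On the scaled values Clcn7 was 396 and 419 in OSCA-32, 456 and 552 in OSCA-40, 295 and 293 in PBS and 289 and 314 at week 0. In limma, with Benjamini-Hochberg adjustment over the 7872 genes tested, it rose in OSCA-40 against PBS by 0.77 ± 0.10 (log2, SE; adjusted p = 0.0041), and in both lines against PBS by 0.62 ± 0.09 (adjusted p = 0.0084). In OSCA-32 against PBS the log2 fold change was 0.47 ± 0.10 and did not pass (limma, adjusted p = 0.108). The lines did not differ past the threshold either, at 0.30 ± 0.10 for OSCA-40 against OSCA-32 (limma, adjusted p = 0.194); that value was 0.16 without OSCA-40 replicate 2 and 0.11 on the mouse total. PBS differed from week 0 by -0.03 ± 0.10 (limma, adjusted p = 1). These directions depend on the scaling: with library totals alone Clcn7 was -0.89 in OSCA-40, -0.50 in both lines and -0.12 in OSCA-32 against PBS, while the median tested mouse gene moved by -1.53, -1.05 and -0.56. Both calls were lost without a variance trend (limma, adjusted p = 0.073 and 0.118), and that of both lines also without PBS replicate 1 or PBS replicate 2 (adjusted p = 0.097 and 0.098).

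Of the 4 members that passed the filter on low values, 1 was called in OSCA-40 against PBS, where 6.75% of all tested genes were called and 4.41% as higher. In both lines against PBS 1 was called, against 4.48% of all tested genes and 3.38% as higher. No member was called in OSCA-32 against PBS, where 1.09% of all tested genes were called and 0.902% as higher. None was called in PBS against week 0 (0.165% of all tested genes, 0.0635% as higher) or in OSCA-40 against OSCA-32 (2.76%, and 1.77% as higher). Clcn7 was the member called both times. Each comparison with PBS uses the same 2 PBS libraries. In blood, more cells that release a transcript and more of it per cell cannot be told apart.

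Tcirg1 (ENSMUSG00000001750, chr19:3896050-3907133, minus strand) encodes the a3 subunit of the membrane part of the V-ATPase, which carries the pump to the ruffled border. Its deposited values were 113 and 133 in OSCA-32, 50 and 67 in OSCA-40, 139 and 96 in PBS and 137 and 113 at week 0. Scaled, it stood at 115 and 132 in OSCA-32, 103 and 145 in OSCA-40, 94.2 and 64.2 in PBS and 96.5 and 78.3 at week 0, so that every tumour library was above every tumour-free one; per 100000 of the mouse total this did not hold, with 16.02 in OSCA-40 replicate 1, against 16.7 in PBS replicate 1. The PBS libraries lay far apart, and no comparison passed, although both lines against PBS did where only genes with a mean of at least 50 were tested (limma, adjusted p = 0.0448). The log2 fold change was 0.66 ± 0.23 in OSCA-32 against PBS (limma, adjusted p = 0.340), 0.64 ± 0.23 in OSCA-40 against PBS (adjusted p = 0.165) and 0.65 ± 0.20 in both lines (adjusted p = 0.150). Without PBS replicate 2 these 3 values were 0.38, 0.36 and 0.37. In OSCA-40 against PBS the difference was 0.41 without OSCA-40 replicate 2, and -1.0 with library totals alone.

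Atp6v0d2 (ENSMUSG00000028238, chr4:19876841-19922605, minus strand) encodes the d2 subunit of the pump, which is also needed for the fusion of osteoclast precursors in mice. Its deposited values were 15 and 19 in OSCA-32, 8 and 7 in OSCA-40, 19 and 20 in PBS and 19 and 17 at week 0. Scaled, the tumour libraries spanned 15.1 to 18.9 and the tumour-free ones 11.8 to 13.4, without overlap. The log2 fold change was 0.35 ± 0.18 in OSCA-32 and 0.25 ± 0.18 in OSCA-40 against PBS, and neither passed (limma, adjusted p = 0.594 and 0.503). With library totals alone these were -0.20 and -1.29. The OSCA-40 value was 0.080 on the mouse total, and the OSCA-32 value 0.20 without OSCA-32 replicate 2.

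Tnfrsf11a (ENSMUSG00000026321, chr1:105780718-105847981, plus strand) encodes RANK, the receptor that starts osteoclast formation. It was listed at 43 and 41 in OSCA-32, 21 and 21 in OSCA-40, 58 and 61 in PBS and 60 and 67 at week 0. As deposited, OSCA-40 lay below OSCA-32 and both lay below the tumour-free libraries, among which PBS and week 0 overlapped. The scaled values spanned 40.7 to 45.3 in tumour libraries and 39.3 to 46.4 in tumour-free libraries and overlapped. The log2 fold change was 0.08 ± 0.11 in OSCA-32 and 0.14 ± 0.11 in OSCA-40 against PBS, neither of which passed (limma, adjusted p = 0.894 and 0.523). The OSCA-40 difference was -0.03 when libraries were scaled on the mouse total and -1.48 with library totals alone.

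**Figure D2:**
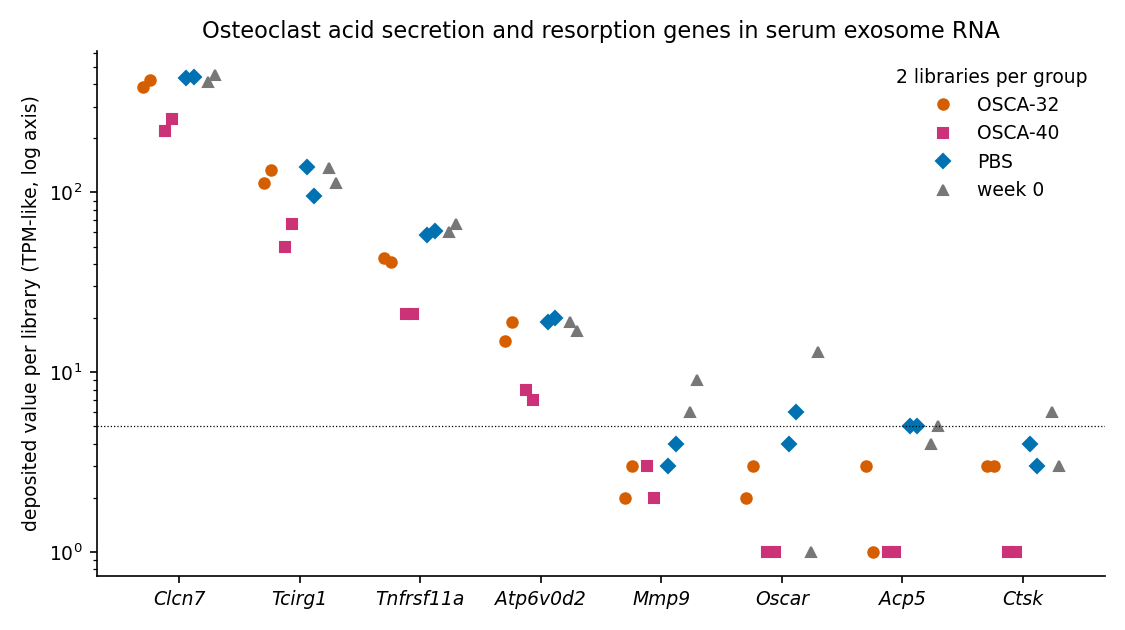
Deposited value of each of the 8 genes in each library, on a log axis, with a dotted line at 5, the median protein-coding gene in tumour-free libraries. Clcn7 (221 to 453) lies above every other gene in every library. Acp5, Ctsk, Oscar and Mmp9 are at 1 to 3 in tumour libraries, below the line, and at 1 to 13 in tumour-free libraries.

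The other receptor and the 3 secreted enzymes were too low for the filter, which asked for a value of 10 in at least 2 libraries. Oscar (ENSMUSG00000054594, chr7:3609813-3616157, minus strand), a receptor that gives osteoclast precursors a costimulatory signal, was listed at 2 and 3 in OSCA-32, 1 and 1 in OSCA-40, 4 and 6 in PBS and 1 and 13 at week 0. Its highest and one of its lowest values were the replicates of week 0. Ctsk (ENSMUSG00000028111, chr3:95499256-95509362, plus strand), cathepsin K, the main collagen-degrading protease of osteoclasts, was listed at 3 and 3 in OSCA-32, 1 and 1 in OSCA-40, 4 and 3 in PBS and 6 and 3 at week 0. Acp5 (ENSMUSG00000001348, chr9:22126727-22135711, minus strand), the tartrate-resistant acid phosphatase used to stain osteoclasts, was listed at 3 and 1 in OSCA-32, 1 and 1 in OSCA-40, 5 and 5 in PBS and 4 and 5 at week 0. Acp5 lies on the strand opposite 6530413G14Rik over 8985 bases, and that gene has no row in the table. Mmp9 (ENSMUSG00000017737, chr2:164940780-164955850, plus strand), a gelatinase that neutrophils also carry, was listed at 2 and 3 in OSCA-32, 3 and 2 in OSCA-40, 3 and 4 in PBS and 6 and 9 at week 0. At such values a step of 1 is a large fold.

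In a fit of all genes without the filter, none of these 4 was called in any comparison. Mmp9 had the smallest p of them in OSCA-40 against PBS, at a log2 fold change of 0.89 ± 0.29 (limma, adjusted p = 0.187), and stood at -0.88 ± 0.29 in PBS against week 0 (limma, adjusted p = 1). Against PBS, Acp5 was -0.62 ± 0.37 in OSCA-32 and -0.49 ± 0.37 in OSCA-40, Ctsk was 0.27 ± 0.31 and -0.10 ± 0.31, and Oscar was -0.31 ± 0.80 and -0.47 ± 0.80. Of these fold changes, those of Acp5, Ctsk and Oscar were each less than 2 times their SE.

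**Figure D3:**
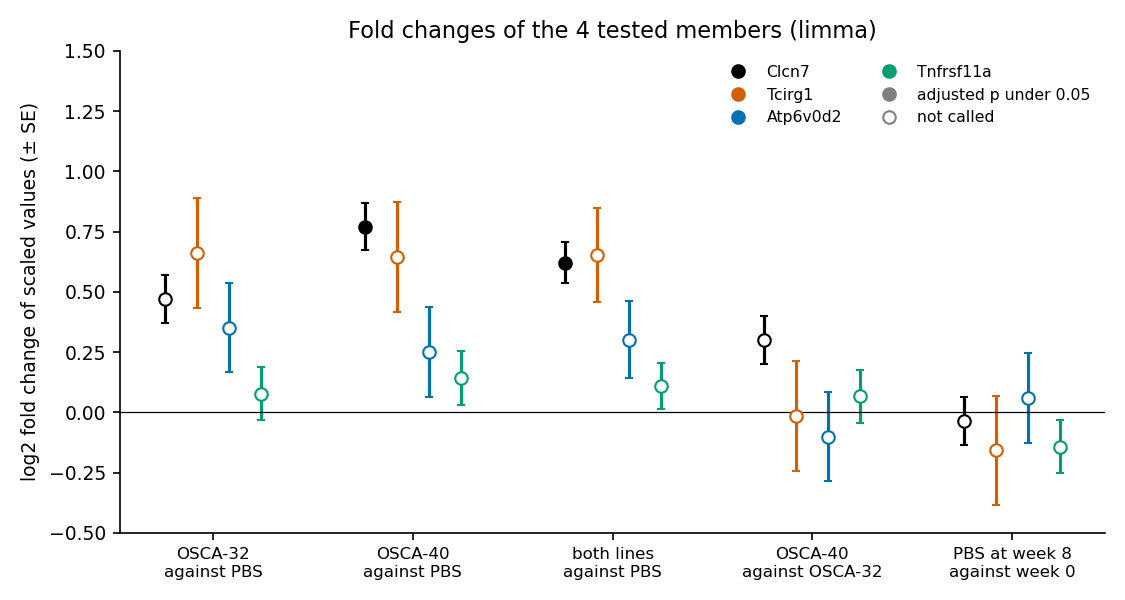
Log2 fold change of the 4 tested genes in each comparison, with SE bars from limma; filled points have an adjusted p under 0.05. Clcn7 is filled in OSCA-40 against PBS (0.77) and in both lines against PBS (0.62), and no other point is.

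The values of the 8 genes also show how much Clcn7 dominates their sum. Clcn7 was 2.14 and 2.08 times the sum of the other 7 in OSCA-32, 2.60 and 2.56 times in OSCA-40, 1.88 and 2.25 times in PBS and 1.76 and 2.00 times at week 0. This ratio is taken within a library and does not depend on the scaling. OSCA-40 held the highest pair, and OSCA-32 overlapped PBS. Clcn7 made up 63.8% to 72.2% of the sum of the 8.

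The genes around Clcn7 on chromosome 17 did not share its level. Its deposited mean over the 8 libraries was 377.875, against 3.875 for Tmem204, 25 for Telo2 and 2.125 for Ptx4 before it and 3.0 for Ccdc154, 6.25 for BC003965 and 6.0 for Unkl after it. The likeness of profiles was measured over 756 genes whose mean reached 50. Those whose scaled log2 profile over the 8 libraries was closest to that of Clcn7 were Tepsin, Tnnc1, Ncstn, Trmt13 and Tlr1. Their root mean square differences from Clcn7 were 0.077, 0.0826, 0.1023, 0.1038 and 0.1126 on the log2 scale, where the median candidate had 0.3319. Tnnc1, the slow skeletal and cardiac troponin C, also had a level like that of Clcn7, with 436 and 404 in OSCA-32, 238 and 278 in OSCA-40, 477 and 489 in PBS and 486 and 479 at week 0. None of the 5 had a match to the printed stretch.

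Recurrent stretches were then read across all members. Clcn7-202 held its stretch over 21.9% of its length, and the other 6 transcripts of Clcn7 held none. Tcirg1, the second highest member, had recurrent stretches in 2 of its 14 transcripts, but no match to the stretch of Clcn7. Acp5, at a level of only 4.75, had one in 1 of 6 transcripts and Oscar in 3 of 4. Atp6v0d2, Ctsk, Mmp9 and Tnfrsf11a had none, and Tnfrsf11a was the third highest member. The table is per gene, so it does not show which transcript carries a value.

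Among the other protein-coding genes the level went with such matches. The 19934 genes without a match to the printed stretch had a median of 4.5 in tumour-free libraries, and 1.60% of them reached 100. The 1186 genes with a match over less than 10% of a transcript had a median of 11.5, the 265 with 10% to 25% a median of 26, and the 88 with 25% or more a median of 61.375. In the last class 22 genes reached 100, and its middle 50% ran from 28.5 to 98.3. Clcn7 at 434 was far above the upper quartile of its own class, 43.25. The part of the stretch in the level of Clcn7 was not tested.

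**Figure D4:**
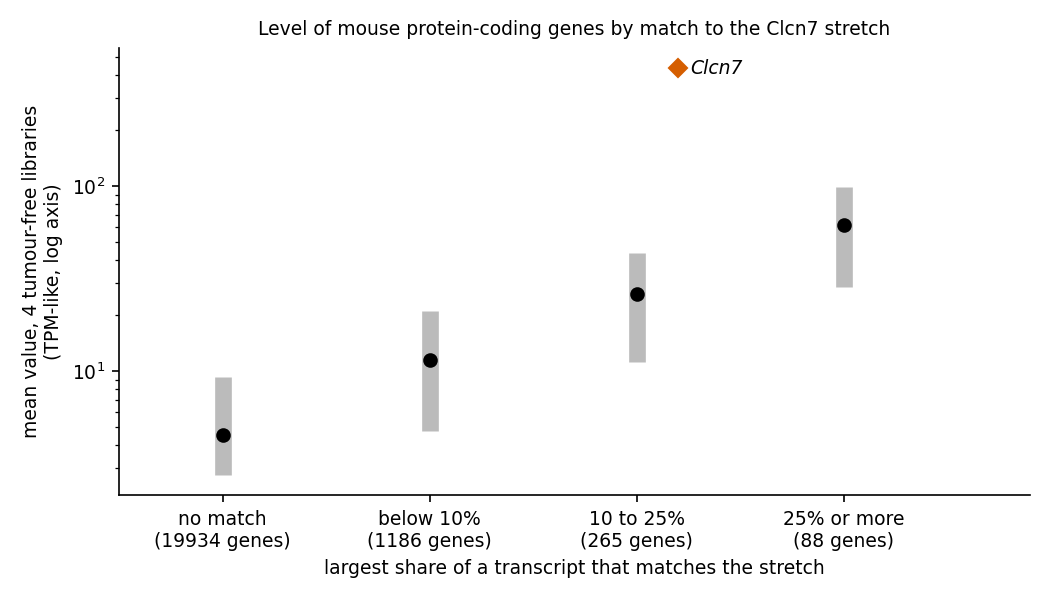
Deposited level in tumour-free libraries of mouse protein-coding genes, on a log axis, by the share of a transcript that matches the printed Clcn7 stretch; points are medians and bars run from the lower to the upper quartile. The median is 4.5 without a match and 61.375 at 25% or more, and Clcn7 (434) is marked in its class.

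The median fold changes of these classes lay close together. In OSCA-40 against PBS the median log2 fold change was -0.04 over 5509 tested genes without a match, -0.02 over 710 with less than 10%, and 0.02 over 281 with 10% or more. Of the class with 10% or more, 7.83% rose and 7.47% fell, of that with less than 10%, 1.41% and 0.704%, and of the genes without a match, 2.65% and 1.89%. The shares were thus highest in the class with 10% or more and lowest in that with less than 10%. They did not rise steadily with the size of the match. Differences between these shares were not tested.

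Of the other genes of the pathway, only Spi1 was called. Of 23 other V-ATPase subunits 14 were tested, and none was called in any comparison. Their median log2 fold change was 0.06 in OSCA-32 and -0.07 in OSCA-40 against PBS, beside -0.0043 and -0.04 for all 7655 tested mouse genes. The highest of them was Atp6v0e2, an e subunit of the membrane part, at 55 and 77 in OSCA-32, 16 and 27 in OSCA-40, 99 and 112 in PBS and 134 and 135 at week 0. It was the pump subunit nearest to Tcirg1 in level, and one of its transcripts holds a recurrent stretch over 24.7% of its length. Its scaled log2 fold change in OSCA-40 against PBS was -0.68 ± 0.26 and did not pass (limma, adjusted p = 0.197).

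Of the 8 other chloride channels and transporters of the CLC family 4 were tested and none was called. The highest, Clcn3, an exchanger of endosomes, was listed at 22 and 26 in OSCA-32, 12 and 11 in OSCA-40, 39 and 40 in PBS and 34 and 35 at week 0. None of the 5 tested of 8 partners in acid secretion and ruffled border formation was called; the highest was Slc4a2, the exchanger that swaps bicarbonate for the chloride the osteoclast secretes, with 14 and 16 in OSCA-32, 5 and 11 in OSCA-40, 25 and 29 in PBS and 31 and 36 at week 0. Of 10 matrix-degrading proteases and inhibitors only the membrane-bound protease Mmp14 was tested and it was not called.

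Of 21 genes of osteoclast differentiation and signalling 5 were tested. Spi1, which encodes PU.1, a transcription factor of the myeloid lineage from which osteoclasts come, was listed at 7 and 6 in OSCA-32, 1 and 1 in OSCA-40, 14 and 13 in PBS and 15 and 11 at week 0. Its OSCA-40 values are near the floor, where a step of 1 is a large fold. Spi1 passed the filter only through tumour-free libraries, a selection that favours a fall. It fell in OSCA-40 against PBS, at -1.70 ± 0.31 (limma, adjusted p = 0.0193), a call lost without PBS replicate 1, PBS replicate 2 or week 0 replicate 1 (adjusted p = 0.144, 0.120 and 0.0507). The highest of that list, Ocstamp, which osteoclast precursors need to fuse, stood at 0.06 ± 0.22 in OSCA-40 against PBS and was not called (limma, adjusted p = 0.921). In the 5 pathway lists just described, the gene with the highest level was each time one with a recurrent stretch, and in the other 5 lists, those of bone and blood cell markers, it was each time one without. Over all 116 genes of the 10 lists beside the members, the 27 with a stretch had a median level of 12.25 in tumour-free libraries and the 89 without one 5.25. The order was the opposite among the proteases and inhibitors (2.5 with a stretch, 3.0 without) and the erythroid markers (18.75 with, 24 without).

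**Figure D5:**
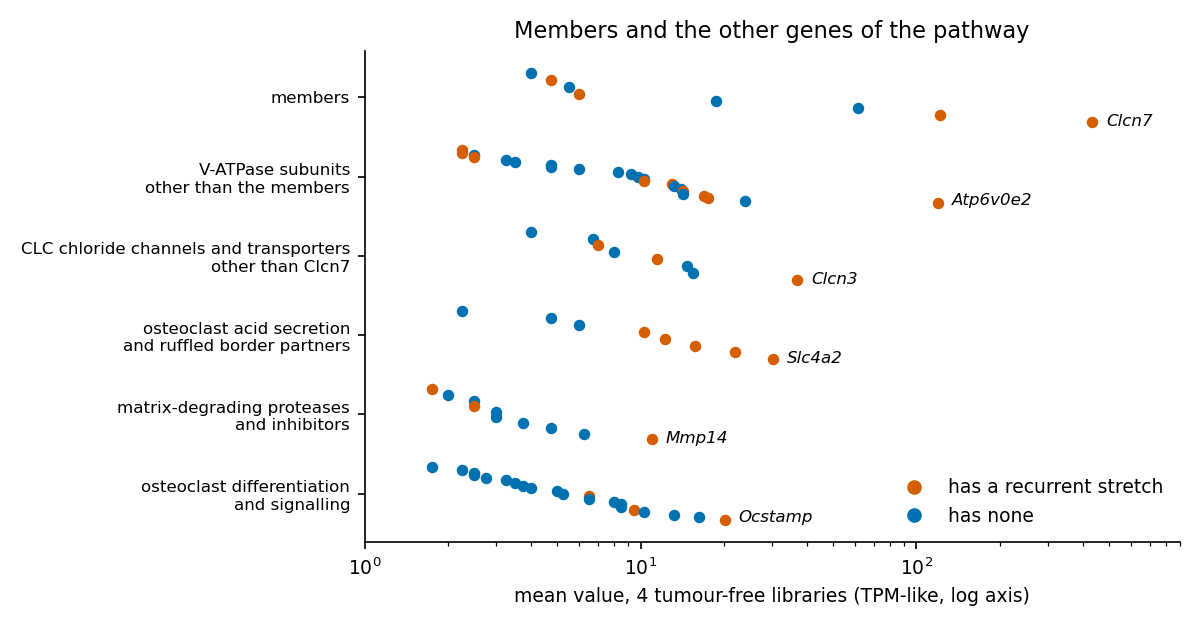
Mean deposited value in tumour-free libraries of every gene of the pathway lists, on a log axis; orange points have a recurrent stretch in a transcript, and the highest gene of each list is named. Clcn7 (434), Tcirg1 (121.25) and Atp6v0e2 (120.0) are above 100.

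Markers of cells that could also release these transcripts were read beside the members. The 9 monocyte and macrophage markers, of which none passed the filter, summed to 14 to 27 in tumour libraries, against 26 to 41 in tumour-free libraries; between 0 and 2 of them were at 0 in a tumour library. The 9 neutrophil markers summed to 17 to 45 in tumour libraries, against 56 to 87 in tumour-free libraries, led by Ltf, with 2 tested and none called. The 12 osteoblast and bone matrix markers summed to 28 to 73 in tumour libraries, against 92 to 114 in tumour-free libraries, led by Col1a2, with 6 tested and none called. On the deposited scale the neutrophil and osteoblast sums were thus lower in every tumour library, and the monocyte and macrophage sums overlapped. With library totals alone the median tested mouse gene also moved, by -0.56 in OSCA-32 and -1.53 in OSCA-40 against PBS. Scaled, the median log2 fold change in these comparisons was -0.22 and -0.19 over the tested osteoblast markers. Over the tested neutrophil markers it was 0.07 and -0.15. The part of these cells in the deposited levels of the members was not tested.

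The 8 platelet markers summed to 150 to 212 in tumour libraries, against 100 to 143 in tumour-free libraries. Pf4 and Tmsb4x made up most of that sum, and the others did not all follow them. Ppbp had deposited values of 8 to 14 in tumour libraries, against 6 to 9 in tumour-free libraries. Ppbp passed the filter only through the OSCA-32 libraries, at 14 and 10, a selection on the tumour side. Without either of those libraries it was not tested. Itga2b, an integrin of platelets, had 8 to 17 in tumour libraries, against 18 to 29 in tumour-free libraries. Scaled, Itga2b was 0.34 ± 0.30 in OSCA-40 against PBS and did not pass (limma, adjusted p = 0.583). The medians of the list, as deposited, overlapped (6.5 to 9.5 in tumour libraries, against 6.5 to 7.5 in tumour-free libraries). In OSCA-40 against PBS 3 of the 4 tested rose: Pf4, a platelet chemokine, by 2.76 ± 0.25, Tmsb4x, an actin-binding peptide abundant in platelets, by 2.71 ± 0.14, and Ppbp, another platelet chemokine, by 1.57 ± 0.27 (limma, adjusted p = 0.000863, 6.0e-05 and 0.0131). The Ppbp call was lost without PBS replicate 1, PBS replicate 2 or OSCA-40 replicate 1 (adjusted p = 0.0899, 0.0537 and 0.0594), and with library totals alone Ppbp stood at 0.070 and did not pass (adjusted p = 0.806). Of the 8 erythroid markers, 6 were tested and 1, the alpha globin Hba-a2, rose in OSCA-40 against PBS, by 1.70 ± 0.07 (limma, adjusted p = 1.7e-05), and fell in PBS against week 0, at -0.76 ± 0.07 (limma, adjusted p = 0.0157). With library totals alone the OSCA-40 value of Hba-a2 was 0.047 and did not pass (adjusted p = 0.569). The call against week 0 was lost on leaving out any 1 of the 4 PBS and week 0 libraries (adjusted p = 0.191 to 0.241), without the filter, without a variance trend and with only the groups compared (adjusted p = 0.107, 0.523 and 0.0807). On the deposited scale the erythroid sum was 257 to 288 in tumour libraries, against 320 to 492 in tumour-free libraries. With library totals alone the median tested mouse gene moved by -0.56 in OSCA-32 and -1.53 in OSCA-40 against PBS. Scaled, 5 of the 6 tested erythroid markers were positive in OSCA-40 against PBS, with a median log2 fold change of 0.83. Scaled Clcn7, Pf4 and Tmsb4x were thus all higher in OSCA-40 than in PBS. The part of platelet and red cell RNA in the Clcn7 difference was not tested.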

How the data were processed

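Serum exosome RNA of 8 pooled libraries in 4 groups of 2 was analysed from a table of 1 value per gene and library. Per the labels' protocols, ExoQuick enriched the exosomes and a stranded SMARTer pico-input kit gave the libraries. kallisto 0.43.0, Trimmomatic 0.33.0 and FastQC 0.11.5 were used with CanFam3.1 and GRCm38.p5, per the submitters' processing notes. The index and its annotation release are not given in the sources. The deposited values are treated as a score: whole numbers whose library totals hardly vary while the canine share does, as with TPM made whole. Such values keep no depth, so no counting interval is given.

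A gene was tested if 2 or more libraries reached 10 (7655 mouse, 217 canine genes). Scaling used an unweighted trimmed mean of log ratios, with week 0 replicate 1 as its base (30% of ratios and 5% of levels trimmed at each end). limma 3.58.1 (R 4.3.3) was fitted to log2(scaled value + 1) with a mean per group over all 8 libraries (4 residual degrees of freedom) and a variance trend. Fold changes are on that scale, which understates those of low genes. Within each of the 5 comparisons, p was adjusted by the Benjamini-Hochberg method, with a threshold of 0.05. The procedure was tested on simulated data.

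The members and the 10 other gene lists were chosen with earlier results of these data known, and vesicle components and the search for recurrent stretches after the values were seen. Named were all members; of each list the called genes (at most 5) and the highest gene; the 5 genes most like Clcn7; and the 3 genes on either side of it. 1 sequence is not reported here. Symbols and coordinates are from GENCODE mouse release 21 (GRCm38), which matched 31171 of 31300 mouse identifiers. The 20716 canine genes were used in totals, and the 217 tested also entered the scaling, the variance trend and the adjustment. Transcripts were compared with BLAST 2.17.0 (e-value 1e-05). Alternatives tried were other scalings, filters, pseudocounts (0.25 and 4) and variance models, only the groups compared, a replicate block, and leaving out each library.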

Additional observations from a re-analysis of the deposited data

How the results depend on the processing

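Clcn7 in OSCA-40 against PBS kept its direction and passed in all 8 fits that left out 1 library (0.64 to 0.91). Leaving out 1 library gave 0.55 to 0.69 in both lines (not past the threshold without PBS replicate 1 or 2), 0.42 to 0.51 in OSCA-32 (past it without either OSCA-40 library), -0.091 to 0.029 in PBS against week 0 (0.029 without week 0 replicate 2), and 0 to 1 members called in OSCA-32 and in both lines. With library totals alone, Clcn7 was -0.12 (OSCA-32), -0.89 (OSCA-40), -0.50 (both lines), 0.020 (PBS against week 0) and -0.77 (between the lines); Tcirg1 was -1.0 in OSCA-40 and -0.46 in both lines; Atp6v0d2 was -0.20, -1.29 and -0.75 and Tnfrsf11a -0.50, -1.48 and -0.99 in OSCA-32, OSCA-40 and both lines; Tnfrsf11a was -0.97 in OSCA-40 against OSCA-32; Hba-a2 in both lines was -0.070; and 1, 4, 3 and 4 members were called in OSCA-32, OSCA-40, both lines and between the lines. Scaled on the mouse total, Tnfrsf11a was -0.034 in OSCA-40 against PBS and -0.12 between the lines, while the median mouse gene in OSCA-40 against PBS moved to -0.20. With a mean of at least 50, Clcn7 in OSCA-32 passed at 0.47 (adjusted p = 0.023; 0.023 to 0.441 over its alternatives other than leaving out a library), and 1 member was called in OSCA-32 and 2 in both lines, with fewer genes tested. Without a variance trend Clcn7 in OSCA-40 and both lines was 0.77 and 0.62 but did not pass, and 0 members were called in either; the cause was not tested. Small fold changes also turned sign when 1 library was left out: Tcirg1 in PBS against week 0 (-0.43 to 0.12, positive without PBS replicate 2) and between the lines (-0.26 to 0.23, positive without OSCA-32 replicate 2 or OSCA-40 replicate 1, at 0.084 and 0.23), and Atp6v0d2 in PBS against week 0 (-0.023 to 0.15, negative without week 0 replicate 2) and between the lines (-0.24 to 0.044, positive without OSCA-32 replicate 2). Spi1 also missed the threshold with only the groups compared (adjusted p = 0.106).

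Over all genes, 86, 531, 353, 13 and 217 were called in OSCA-32, OSCA-40 and both lines against PBS, PBS against week 0 and 1 line against the other. Counts off by over 1.5 times were 1353, 6725, 6033 and 4638 with library totals alone (all but PBS against week 0); 2139, 1238, 2 and 1645 without the filter (all but OSCA-32); 133 and 24 (OSCA-32, PBS against week 0) with a mean of at least 50; 8 (PBS against week 0) with a minimum of 5; 313, 204, 5 and 112 without the trend (all but OSCA-32); 46, 320, 2 and 84 with only the groups compared (all but both lines); and, leaving out 1 library, 38 to 86, 278 to 530, 136 to 321, 2 to 10 and 70 to 171. In OSCA-40 against PBS 222 mouse genes were higher and 177 lower, but 149 and 311 on the mouse total and 15 and 6538 with library totals alone. Replicate differences of the 4 groups correlated at -0.0564 to 0.0052, which gives no sign that replicate numbers pair the libraries. Such correlations cannot exclude a pairing. With the replicate block Clcn7 was 0.77 in OSCA-40, 0.62 in both lines and 0.47 in OSCA-32, and 60, 460, 282, 6 and 144 genes were called. Depth is unknown, and values near 1 limit Acp5, Ctsk, Oscar and Mmp9, and Spi1 in OSCA-40.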
